A study of Mus musculus with 2 samples.

Results

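The genes Twist1, Twist2, Snai1, Snai2, Zeb1, Zeb2 and Tcf21 encode transcription factors that set or keep the mesenchymal state of cells. They were taken by name, and all 7 are among the 23365 genes of the deposited table. RNA of mouse embryonic fibroblasts, mesenchymal cells grown from embryos, was sequenced from wild-type cells and from cells with TET1 and TET2 knocked out, 1 library for each genotype. TET enzymes oxidize 5-methylcytosine in DNA, and the title of the series asks how Tet1 and Tet2 bear on developmental genes. Strain, embryonic age, passage, the design of the knocked-out alleles and the number of embryos behind each library were not given in the sources used here.

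Values come from a comparison made by the authors, whose sides are named A and B, and these names match the labels of neither sample. No ratio was therefore assigned to a genotype, and all ratios are B over A. Levels of single conditions were not used here. The level given for a gene is its mean normalized count, the mean over both conditions of read counts divided by size factors. With 1 library per genotype there is no replicate check and no test across samples, and the authors' p-values compare 2 libraries. A gene was called past the fold when its log2 ratio was at least 1 in size, that is 2-fold, at a mean normalized count of at least 50. Depth per library was not analysed here, so no counting error is given.

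Twist1 and Twist2 are basic helix-loop-helix (bHLH) factors that pair with E proteins and bind E-box sequences in DNA. Snai1 and Snai2 are zinc finger repressors, and Zeb1 and Zeb2 combine zinc fingers with a homeodomain. Snail and Zeb proteins bind E-boxes in epithelial genes such as Cdh1, the gene of E-cadherin, and recruit corepressors there. During gastrulation, neural crest migration and wound repair these factors drive cells from an epithelial to a mesenchymal state, and fibroblasts keep several of them on. Tcf21 is a bHLH factor of mesenchyme in the heart, kidney, lung and gonad.

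Since the study concerns methylation of CpG sites, the bases before the start sites are shown with each CpG in capitals. Shown are the Twist pair, whose log2 ratios lay apart, Snai1, with a ratio near 1, Zeb2, the member past the fold, and Tcf21, the member near 0. Sequences are from RefSeq on GRCm38.p6, which is not the mm9 build of the authors, and give the 250 bases before each start, 5′ to 3′. For Zeb2, which has 4 windows, the one farthest upstream is shown.
Twist1, chr12:33957421-33957670, plus strand: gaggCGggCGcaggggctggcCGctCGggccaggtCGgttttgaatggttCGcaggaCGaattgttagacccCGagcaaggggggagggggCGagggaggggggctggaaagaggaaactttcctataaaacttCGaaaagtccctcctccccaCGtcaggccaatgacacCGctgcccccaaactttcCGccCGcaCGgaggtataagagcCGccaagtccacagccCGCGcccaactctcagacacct
Twist2, chr1:91801211-91801460, plus strand: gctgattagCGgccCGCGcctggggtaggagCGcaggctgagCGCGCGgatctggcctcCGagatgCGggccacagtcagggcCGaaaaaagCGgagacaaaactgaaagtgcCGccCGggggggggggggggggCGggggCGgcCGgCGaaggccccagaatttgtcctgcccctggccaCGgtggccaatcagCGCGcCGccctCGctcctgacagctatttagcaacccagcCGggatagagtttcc
Snai1, chr2:167537945-167538194, plus strand: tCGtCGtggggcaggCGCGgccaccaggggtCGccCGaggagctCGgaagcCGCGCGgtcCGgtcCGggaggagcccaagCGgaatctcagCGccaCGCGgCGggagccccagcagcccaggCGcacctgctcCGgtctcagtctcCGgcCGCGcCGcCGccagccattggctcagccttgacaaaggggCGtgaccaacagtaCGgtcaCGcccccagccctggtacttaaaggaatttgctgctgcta
Zeb2, chr2:45117443-45117692, minus strand: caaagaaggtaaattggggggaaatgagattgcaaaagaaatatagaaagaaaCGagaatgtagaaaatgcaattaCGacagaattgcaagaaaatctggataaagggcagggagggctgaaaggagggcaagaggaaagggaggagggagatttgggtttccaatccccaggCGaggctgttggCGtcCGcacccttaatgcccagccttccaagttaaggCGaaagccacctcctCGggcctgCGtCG
Tcf21, chr10:22820144-22820393, minus strand: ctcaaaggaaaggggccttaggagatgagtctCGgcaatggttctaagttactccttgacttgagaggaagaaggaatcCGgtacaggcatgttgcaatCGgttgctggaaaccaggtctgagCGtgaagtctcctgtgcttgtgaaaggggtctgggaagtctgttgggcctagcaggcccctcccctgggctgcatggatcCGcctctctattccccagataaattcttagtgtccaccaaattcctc

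CpG content differed among these promoters. In windows of 300 bases (250 before and 50 after the start) Snai1 held 34 CpG, Twist1 27 and Twist2 25, against a median of 7 and an upper quartile of 20 over 32851 windows. The Tcf21 window held 8 CpG, and the 4 Zeb2 windows held 8 to 19. The observed number of CpG over the number expected from base composition was 0.925 for Snai1, 0.827 for Twist1, 0.803 for Twist2 and 0.378 for Tcf21. Of all windows, 92.3% held fewer CpG than that of Snai1, 84.5% fewer than that of Twist1 and 81.6% fewer than that of Twist2. For the Zeb2 window shown, which held 9 CpG, this share was 54.2%, and for Tcf21 51.4%. The Zeb2 window with 19 CpG exceeded 71.9% of windows, with 0.690 observed over expected. The Snail and Zeb site CACCTG, searched on both strands (CAGGTG), was found in the Snai1 window, where it begins 126 bases before the start. No such letters were found in the windows of Twist1, Twist2, Zeb2 or Tcf21. Of all windows, 20.2% hold this motif. Windows of Snai2 and Zeb1 are not shown.

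Of the 7 genes, 6 had a mean normalized count of at least 50, between 2606 and 6554, per the authors' deposited table. Tcf21 had a mean normalized count of 2.37 there. Zeb2 was the only member past the fold per the authors' deposited table, and it was higher in condition B. Over all 12401 genes at the minimum mean, 17.9% were past the fold, 8.31% higher in B and 9.60% higher in A. The members' share, 1 of 6 (16.7%), lies near that background. Among the 3099 genes with a mean in the members' range the share was 8.16%. With 1 gene past the fold, the members' share cannot be set apart from either. At an authors' adjusted p under 0.1, 0 of the 7 members passed, against 2.29% of 17339 genes with a p-value, and 1 member, Zeb2, had an unadjusted p under 0.05 per the authors' deposited table. The median log2 ratio of the 6 genes was -0.027 and that of all 12401 genes -0.04. In bulk RNA fewer cells of a type and less RNA per cell cannot be told apart.

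**Figure D1:**
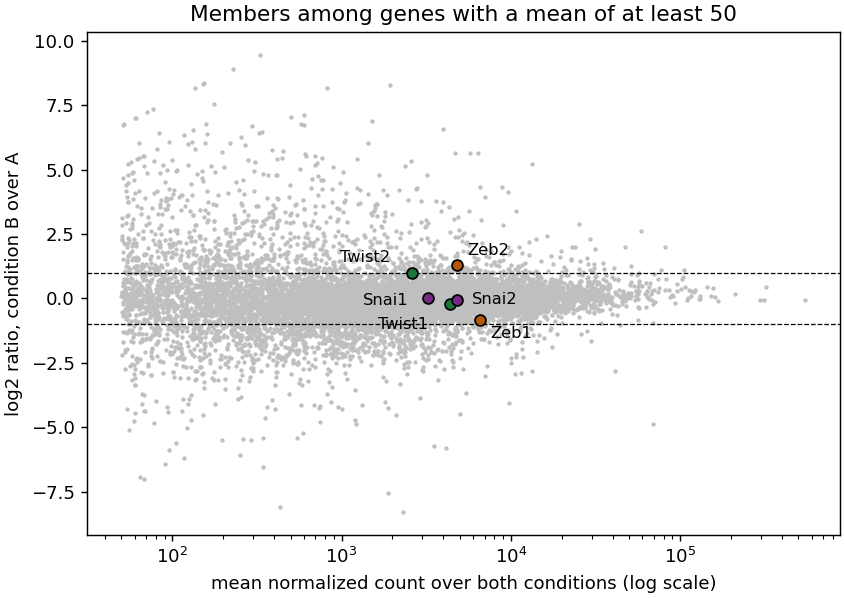
Each grey point is a gene whose mean normalized count reached 50 and whose ratio is finite, the x axis gives that mean (log scale) and the y axis the log2 ratio of condition B over A. Coloured points are Twist (green), Snail (purple) and Zeb (orange) genes, and dashed lines mark log2 ratios of 1 and -1. The 6 members lie between means of 2606 and 6554, and Zeb2 alone lies above the upper line.

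Ratios lay apart within the Zeb and Twist families and close together in the Snail pair. Zeb2, known also as Sip1 for its binding to Smad proteins, was 2.43-fold higher in condition B per the authors' deposited table, at a mean normalized count of 4781. Its log2 ratio there was 1.28, with an unadjusted p of 0.0455 and an adjusted p of 0.745. Zeb1, the other Zeb repressor, was 1.78-fold higher in condition A per the authors' deposited table, at a mean of 6554 (log2 ratio -0.83, adjusted p = 1). The Zeb genes thus lay on opposite sides of 0, and Zeb1 did not reach the fold. The ratio of Zeb2 to Zeb1 was 4.32-fold higher in B than in A, a difference of 2.11 in log2 ratio. This ratio of ratios does not depend on the size factors, and it has no error with 1 library per genotype.

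Twist2, also called Dermo1 and known from the dermis, was 1.98-fold higher in condition B per the authors' deposited table, at a mean of 2606 (log2 ratio 0.99, adjusted p = 1). Twist2 thus ended just under the fold, while Zeb2, at a log2 ratio of 1.28, lay further past it. Centring the ratios on the median of all genes took Twist2 to a log2 ratio of 1.02, past the fold. Twist1, whose loss in humans causes early fusion of skull sutures, had a log2 ratio of -0.22 per the authors' deposited table at a mean of 4397, with an adjusted p of 1. Over both conditions Twist1 had the higher mean, 1.69 times that of Twist2, before any correction for length. The ratio of Twist2 to Twist1 was 2.30-fold higher in B than in A.

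The Snail genes were the closest pair. Snai1, needed for mesoderm formation in the mouse embryo, had a log2 ratio of 0.018 per the authors' deposited table at a mean of 3249, with an adjusted p of 1. Snai2, also called Slug and known from neural crest, had a log2 ratio of -0.073 per the authors' deposited table at a mean of 4833, with an adjusted p of 1. The ratio of Snai1 to Snai2 was 1.07-fold higher in B than in A. Without replicates these values do not show that either gene was equal between the genotypes.

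**Figure D2:**
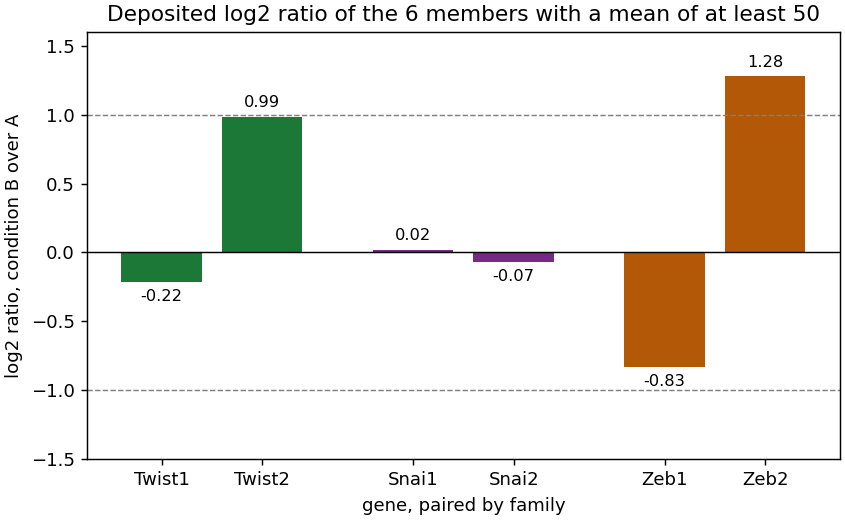
Bars give the deposited log2 ratio of condition B over A for the 6 members with a mean of at least 50, side by side by family, and dashed lines mark 1 and -1. Zeb1 (-0.83) and Zeb2 (1.28) lie on opposite sides of 0, Twist2 (0.99) ends just under the line, and the Snail bars are near 0.

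To place these sizes, 3099 genes had a mean within the members' range of 2606 to 6554. Their log2 ratios had quartiles of -0.29 and 0.23, and 8.16% were past the fold. Among them 5.36% had a log2 ratio at least as large in size as that of Zeb2, 8.29% as that of Twist2 and 11.2% as that of Zeb1. For Twist1 this share was 56.3%, for Snai2 85.9% and for Snai1 96.5%. Zeb2, Twist2 and Zeb1 thus lay in the outer part of the genes of like mean, and the other 3 in the middle. Among the 12401 genes, leaving out 6 with an infinite ratio, the log2 ratio of Zeb2 lay at percentile 93.7. That of Twist2 lay at 91.5 and that of Zeb1 at 12.1. Snai1 lay at percentile 54.3, Snai2 at 47.1 and Twist1 at 35.7.

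Tcf21, which cardiac fibroblasts of the mouse need to form, was the one member near 0 in these cells. Its mean normalized count over both conditions, 2.37, lay at percentile 34.3 of all genes per the authors' deposited table. Its fold is 0 there, so it is listed at 0 in condition B, and no fold is given for it.

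Transcripts on the opposite strand overlap exons of both Zeb genes, and the library kit does not mark strand. Any part of such transcripts in the members' ratios was not tested. Zeb2os, an RNA that overlaps a Zeb2 exon on the opposite strand and is listed under its older symbol Gm13476, had a log2 ratio of 1.32 per the authors' deposited table at a mean of 66.4. Its ratio is close to that of Zeb2, whose mean of 4781 is far higher, and reads of their shared bases cannot be told apart. Gm10125, which overlaps Zeb1 on the opposite strand, had a mean of 5.59 per the authors' deposited table. Gm27761 overlaps a Zeb2 exon and Gm29100 one of Twist2 in the same way, and neither was analysed here.

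Levels between genes were compared per kilobase of the longest coding transcript in GENCODE M21. On this scale Twist1 was highest at 2701 mean normalized counts per kilobase, followed by Snai2 at 2391 and Snai1 at 2004. Zeb1 followed at 1130, Twist2 at 1032 and Zeb2 at 524, and Tcf21 was last at 1.33. From Twist1 to Snai1 levels differed 1.35-fold, and from Twist1 to Zeb2 5.15-fold. With the median coding transcript of each gene Zeb1 came first at 7282 and Zeb2 second at 2713. The same counts were divided by shorter lengths there, so this is not a second measured order. The longest transcripts of Zeb1 and Zeb2 have 5801 and 9124 bases. Their median ones, over 3 and 17 annotated coding transcripts, have 900 and 1762. The transcripts counted by the authors were not given in the sources used here. Since the spread of these levels over samples is unknown, neighbours in the order cannot be told apart.

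**Figure D3:**
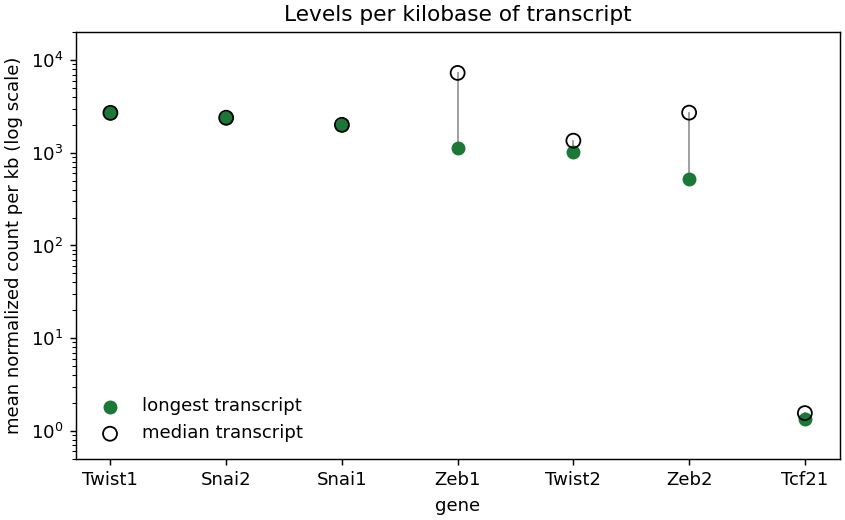
The y axis gives the mean normalized count per kilobase (log scale) of each member, with filled points for the longest and open points for the median coding transcript, joined by a line. Zeb1 moves from 1130 to 7282 and Zeb2 from 524 to 2713 with the choice of transcript, and Tcf21 is at 1.33 with the longest.

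Of 15 bHLH partners, inhibitors and relatives, 9 were at the minimum mean, of which 3 were higher in B and 1 higher in A past the fold (8.31% and 9.60% of all genes), with a median log2 ratio of 0.62. The E proteins, with which Twist proteins pair, had log2 ratios per the authors' deposited table of -0.59 (Tcf3), -0.69 (Tcf4) and -0.28 (Tcf12), at means of 9326, 9179 and 11193. Id proteins bind E proteins and keep them off DNA, and Id4 was 7.72-fold higher in condition B per the authors' deposited table (mean 1072, adjusted p = 0.00982). Id1 had a log2 ratio of 1.54 (adjusted p = 0.371), Id3 one of 0.72 and Id2 one of 0.62 per the authors' deposited table. Of these 7 genes, Id1 and Id4 were past the fold, and the other 5 were not and had an adjusted p of 1 per the authors' deposited table. Scx, a bHLH factor of tendons, was 9.14-fold higher in condition A per the authors' deposited table (mean 1834, adjusted p = 0.00142). Hand2, a bHLH factor of limb and heart that can pair with Twist1, had a log2 ratio of 2.80 per the authors' deposited table at a mean of 333 and an adjusted p of 0.144. The other 6 of the list had means of at most 1.05, among them Ferd3l, the coding gene beside Twist1, which is listed at 0. Other Snail superfamily genes were low, with means of 13.6 for Snai3, 4.69 for Scrt1 and 0 for Scrt2 per the authors' deposited table.

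Corepressors that Snail and Zeb proteins recruit were all measured, 15 of 15, with a median log2 ratio of -0.33. Past the fold were 2, both higher in A (1 after either centring), which lies near the 9.60% of all genes higher in A, and 0 passed the authors' adjusted p. Ezh2, the methyltransferase of Polycomb complex PRC2, had a log2 ratio of -1.63 per the authors' deposited table (adjusted p = 0.340), and Suv39h1, a histone H3 lysine methyltransferase, one of -1.01. Of 13 genes for kinases, phosphatases and ubiquitin ligases of Snail and Twist proteins, 1 was past the fold, higher in B (8.31% of all genes). The median log2 ratio of this list was 0.034. The gene past the fold, Mdm2, the ubiquitin ligase of p53, had a log2 ratio of 1.32 per the authors' deposited table (adjusted p = 0.618).

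Most genes that Snail and Zeb repress in epithelia were under the minimum mean, and some were well above it. Of 22 epithelial junction, keratin and splicing genes, 8 reached the minimum mean, with a median log2 ratio of -0.097. Past the fold, 1 was higher in B and 2 higher in A (8.31% and 9.60% of all genes). The junction gene Jup and the keratin gene Krt19 had means of 13447 and 1146, with log2 ratios of 0.74 and -0.020. Cdh1 had a mean normalized count of 21.3 per the authors' deposited table and Epcam, an epithelial adhesion gene, one of 4.37. Krt7, a keratin of simple epithelia, had a log2 ratio of -7.54 per the authors' deposited table at a mean of 1875 (adjusted p = 6.35e-13), and Krt18 one of -2.29 at a mean of 111 (adjusted p = 1). The desmosome genes Dsp and Pkp2 had log2 ratios of 1.92 and 0.96 per the authors' deposited table, at means of 769 and 2196 (adjusted p-values 0.329 and 1). Of 12 epithelial transcription factors that oppose the transition, Klf5 alone was at the minimum mean, with a log2 ratio of -1.14 per the authors' deposited table (mean 286, adjusted p = 1).

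Of the 25 mesenchymal genes of the transition, all at the minimum mean, 8 were higher in B and 0 higher in A past the fold, against 8.31% and 9.60% of all 12401 genes. The other 17 were past the fold in neither direction, among them Mmp2, a matrix protease gene, with a log2 ratio of -0.95 per the authors' deposited table. The median log2 ratio of the list was 0.57, and no test of the list was made. The authors' adjusted p under 0.1 was passed by 4, all higher in B. These were Fap, a fibroblast surface protease, Thy1, a surface glycoprotein, Postn, the matrix protein periostin, and Pdgfra, a growth factor receptor of mesenchyme. In the authors' deposited table Fap had a log2 ratio of 4.20, Thy1 one of 2.88, Postn one of 2.60 and Pdgfra one of 2.54, with adjusted p-values of 0.0174, 0.00133, 0.00528 and 0.0191. Vim and Fn1 (vimentin and fibronectin) had log2 ratios of 0.27 and -0.059 per the authors' deposited table, at means of 121413 and 550534.

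**Figure D4:**
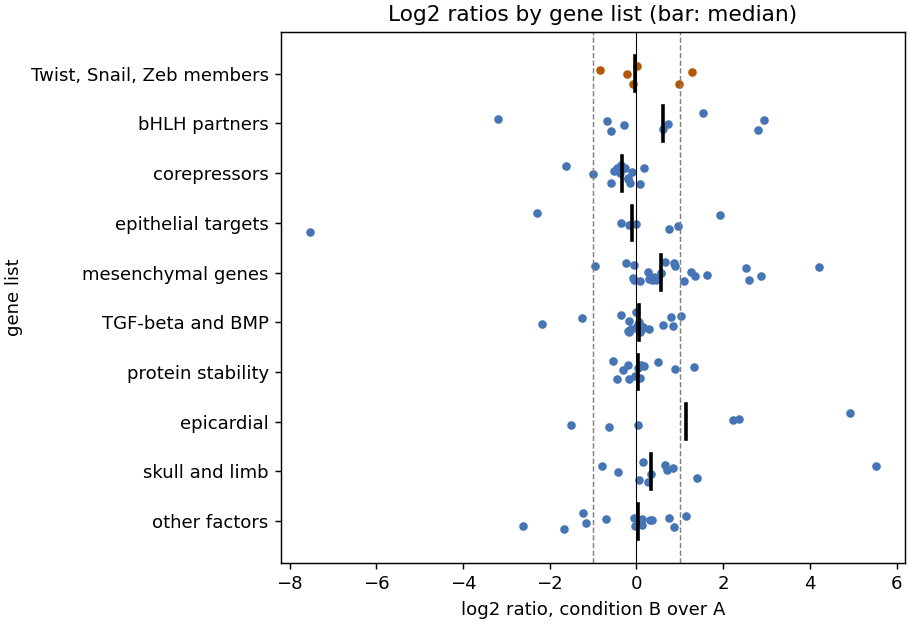
Each point is a gene at a mean of at least 50, placed by its log2 ratio of condition B over A (x axis) in its gene list (y axis), and black bars are list medians. The orange members range from -0.83 to 1.28 around a median of -0.027, and the mesenchymal genes have a median of 0.57.

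Genes of TGF-beta and BMP signalling had a median log2 ratio near 0, which does not measure the signal itself. Of 21 TGF-beta and BMP ligands, receptors and Smads, 19 were at the minimum mean, with a median log2 ratio of 0.054. Past the fold, 1 was higher in B and 2 higher in A (8.31% and 9.60% of all genes). Eng, the co-receptor endoglin, was 4.56-fold higher in condition A per the authors' deposited table (mean 1640, adjusted p = 0.0882). The ligand gene Tgfb3 had a log2 ratio of -1.26 (adjusted p = 0.719), and the activin subunit gene Inhba one of 1.03 per the authors' deposited table.

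Other mesenchymal factors lay on both sides of 0. Of 15 such factors 14 were at the minimum mean, with a median log2 ratio of 0.040. Past the fold, 1 was higher in B and 4 higher in A (8.31% and 9.60% of all genes). Foxc1, a forkhead factor of mesoderm and neural crest, was 6.17-fold higher in condition A per the authors' deposited table (mean 3550, adjusted p = 0.00914). Sox9 and Foxc2 had log2 ratios of -1.67 and -1.23 per the authors' deposited table (adjusted p-values 0.315 and 0.907). Of 12 genes linked to Twist1 in the skull and limb, 11 were at the minimum mean, with a median of 0.34. Past the fold, 2 were higher in B (8.31% of all genes). The homeobox gene Alx4 was 46.2-fold higher in condition B per the authors' deposited table (mean 695, adjusted p = 2.04e-06), and the limb growth factor gene Fgf10 had a log2 ratio of 1.40 (adjusted p = 0.595). Of 10 epicardial and mesothelial genes of the Tcf21 lineage, 6 were at the minimum mean, with a median of 1.14. Past the fold, 3 were higher in B and 1 higher in A (8.31% and 9.60% of all genes). These were Aldh1a2 (log2 ratio 4.93, mean 105), Bnc1 (2.37), Tbx18 (2.23) and Msln (-1.51) per the authors' deposited table, none with an adjusted p under 0.1.

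Marker genes were read in the same table. All 12 fibroblast markers were at the minimum mean, with a median log2 ratio of 1.14. Past the fold, 6 were higher in B and 0 higher in A (8.31% and 9.60% of all genes). Of the 12 markers, 10 are also in the mesenchymal list. The other 2, the matrix proteoglycan genes Dcn and Lum, had log2 ratios of 5.66 and 3.29 per the authors' deposited table (adjusted p-values 3.60e-10 and 0.0330). Of 8 epithelial markers 1, Krt18, reached the minimum mean, and their means summed to 154. The keratin genes Krt7 and Krt19, not among these 8, had means of 1875 and 1146. The sum is therefore no measure of epithelial content. Endothelial markers summed to 653 over 6 genes, of which Kdr alone had a mean of 418. Kdr, Tek and Emcn were the 3 at the minimum mean, all higher in B past the fold (8.31% of all genes). Their log2 ratios were 2.78, 1.21 and 6.06 per the authors' deposited table, with Tek and Emcn at means of 119 and 96.3. Emcn had an authors' adjusted p of 0.0638, under 0.1. Kdr had one of 0.1001, just above that cut, and Tek did not pass it. Pecam1, Cdh5 and Tie1 were near the floor, at means of 9.80, 8.43 and 0.474. Blood cell, skeletal muscle and neural markers summed to 282, 341 and 4102, with Tubb3 at 3977 and Des at 340, while the muscle factors Myod1, Myog and Myf5 are listed at 0. The part of these markers in the members' ratios was not tested. Tet1 and Tet2 had log2 ratios of -1.82 and -0.74 per the authors' deposited table (adjusted p-values 0.851 and 1), and Tet3, not targeted, had one of -0.63. No genotype was read from these values.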

How the data were processed

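Libraries were made with the TruSeq RNA v2 kit from DNase-treated TRIzol RNA of frozen pellets, per the labels' protocols, although the labels list the molecule as genomic DNA. TopHat2 2.0, DESeq and mm9 are named in the submitters' processing notes, and the counter, annotation and DESeq settings were not given in the sources used here. As signal, the deposited mean of size-factor-normalized gene counts was used, which the authors took over both conditions. The authors' deposited fold, or ratio, is condition B over A, and their deposited log2 ratio is its base-2 logarithm with no pseudocount. The p-values, raw and adjusted, were deposited by the authors, and the adjusted ones equal a Benjamini-Hochberg adjustment over 17339 genes. The 2 columns of per-condition values match no sample's labels and were not used. The other 6026 genes are listed at 0.

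From these, genes past the fold were counted, and medians taken, at a mean of at least 50. Computations used Python 3.11.15, numpy 2.4.6, pandas 2.3.3 and matplotlib 3.10.9, and the counting was tested on simulated data. The members, and 18 lists of partners, targets and markers from textbook knowledge, were chosen with earlier results of these data known. In these lists 3 entries were matched through older symbols in RefSeq and 1, Foxf1a, is an older symbol of Foxf1, which is listed too and counted once. Genes named were all members, the TET genes, Snail relatives and bHLH partners, and up to 4 genes of each other list with the largest log2 ratios in size at the minimum mean, and some genes that the rule names are not reported here. Cdh1, Epcam, Jup, Krt19, Vim, Fn1, Mmp2, Dcn, Lum, the endothelial markers, Tubb3, Des and the muscle factors were named after their values were seen. Alternatives were other scalings, minimum means, folds, adjusted p, members left out and transcript lengths.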

Additional observations from a re-analysis of the deposited data

How the results depend on the processing

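Which members were past the fold depended on the scaling and the cut. Higher in condition B was 1 member (Zeb2) as reported, and 2 (Zeb2 and Twist2) when ratios were centred on the median log2 ratio or on the trimmed mean (30% of ratios and 5% of means trimmed at each end). At 1.5-fold the members were 2 higher in B and 1 (Zeb1) higher in A, and at a log2 ratio of at least 2 they were 0 in both directions. With no minimum mean Tcf21 counted as 1 higher in A, and minimum means of 10 and 200 left the counts at 1 and 0. No member had an adjusted p under 0.05 or under 0.1. The median log2 ratio of the 6 members, -0.027, was 0.0081 and 0.013 after the centrings. It was 0.018 without Twist1, Snai2 or Zeb1 and -0.073 without Twist2, Snai1 or Zeb2, so its sign carries no direction. Each of the 6 members kept the sign of its own log2 ratio under both centrings, with Zeb2 at 1.31 and 1.32 and Zeb1 at -0.80 and -0.79. Of 36 counts over the other lists, 35 and 34 stayed within 1.5 times under the centrings, 25 at 1.5-fold and 20 at a log2 ratio of 2. With minimum means of 10, 200 and none, 30, 28 and 20 did. All genes past the fold numbered 1030 higher in B and 1191 higher in A, against 1727 and 2160 at 1.5-fold, 476 and 366 at a log2 ratio of 2, and 3161 and 2336 with no minimum mean. The depth of each library was not used, so no limit by depth can be given. No paired analysis was possible because each genotype has 1 library.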

Other observations

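The nearest coding genes on either side of each member, chosen by position after the members' values were seen, give the ratios around each locus (gene order from RefSeq on GRCm38, symbols matched to the table). Beside Zeb2, Gtdc1 had a log2 ratio of -0.20 and Acvr2a, an activin receptor gene, one of 0.50 per the authors' deposited table. Beside Zeb1, Zfp438 had one of 0.36 and Arhgap12 one of 0.019 there. The neighbours of Twist2 were Asb1 at 0.43 and the histone deacetylase gene Hdac4 at -0.078 per the authors' deposited table. Hdac9, another histone deacetylase gene and the neighbour of Twist1, had a log2 ratio of -1.19 per the authors' deposited table at a mean of 323 (adjusted p = 1). Rnf114 and Ube2v1 beside Snai1 had log2 ratios of 0.13 and 0.21, and Abcc1 beside Snai2 one of -0.13 per the authors' deposited table. Efcab1, on the other side of Snai2, had a mean of 5.32. Hdac9 and, beside Tcf21, Eya4 were the neighbours past the fold at the minimum mean. Of all 12401 genes, 17.9% were past the fold.

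Eya4, a transcription coactivator gene and the neighbour of Tcf21, was 9.04-fold higher in condition A per the authors' deposited table, at a mean normalized count of 3734 (adjusted p = 0.000668). Tbpl1 on the other side of Tcf21 had a log2 ratio of -0.38 per the authors' deposited table at a mean of 2600. Of 13 neighbours with a ratio, Eya4 was the one with an authors' adjusted p under 0.1, against 2.29% of 17339 genes.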
